A study of Mus musculus with 12 samples.

Results

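Retinas that had received both the PDGFRβ-blocking antibody APB5 and minocycline were compared with retinas of control mice that had received IgG and no minocycline, to ask for each gene program whether the treated retina was at the control level, above it or below it. The comparison used 6 of the 12 RNA-Seq libraries of the study, 3 APB5+Mino and 3 IgG, and was counted over autosomal and mitochondrial genes, which made up 46178 of the 50559 genes in the table. Of these, 19101 had enough reads in the 6 libraries to be tested. The mice were wild-type C57BL/6J pups, and retinas were collected at day 28 after birth (P28). IgG mice were given 30 µg of a rat IgG isotype control at P1, and APB5+Mino mice were given 30 µg of APB5, a rat monoclonal antibody against mouse PDGFRβ, at the same age, followed by intraperitoneal minocycline at 45 mg/kg each day from P5 to P27. The other groups, IgG+Mino and APB5 with no minocycline, have 3 libraries each and serve here as reference values without a test. Whether mice without minocycline were injected with vehicle, and whether a library holds 1 retina or several, are not given in the sources used here.

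PDGFRβ is the receptor with which pericytes, the mural cells of capillaries, respond to PDGFB from endothelial cells, and blocking it in the newborn retina keeps pericytes from covering the growing vessels. The exposed vessels leak and become inflamed, microglia gather at them, and Müller glia, the radial glia of the retina, switch on injury genes such as *Gfap* and *Fgf2*. Minocycline is a tetracycline antibiotic that enters neural tissue and is widely used to dampen microglial activation.

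Total counts lay between 52740545 and 59411044 reads per library in the 6 libraries, so that a count of 3 corresponded to at most 0.0585 CPM, the unit of read counts scaled to a common library total. Library sex was not balanced. The 3 IgG libraries carried 47210 to 91647 reads of *Xist*, the RNA of the inactive X chromosome, whereas APB5+Mino replicates 1 and 2 carried 38 and 23 reads and replicate 3 carried 141589, with Y-linked genes in the reverse order. Sex-linked genes were therefore left out of all counts, although an effect of sex on other genes and an effect of treatment cannot be told apart in the 2 APB5+Mino libraries low in *Xist*. All 3 IgG+Mino libraries and APB5 replicates 1 and 2 were also low in *Xist*. IgG replicate 3 stood apart from its group, with a chi-square per gene of 101 and 87.4 against IgG replicates 1 and 2 where those differed by 12.5, and the pairs of APB5+Mino libraries differed by 16.1 to 25.5. APB5 replicate 3, in one of the reference groups, lay far from the other APB5 libraries in most gene lists, so APB5 values are given per library. The legends of the study count mice as the replicates of these groups, and the labels do not tie libraries to animals.

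A gene was called higher or lower when edgeR's quasi-likelihood test gave a Benjamini-Hochberg adjusted p of at most 0.05 and the difference was at least 2-fold, which is 1 on the log2 scale. By this rule 402 genes were higher (2.1%) and 348 were lower (1.82%) in APB5+Mino than in IgG. For 12908 genes (67.6%) the 95% interval of the log2 fold change lay wholly between −1 and 1, and these are described as within 2-fold of IgG. The remaining 5443 genes were not resolved between these states. At any fold, 2391 genes were higher and 2560 lower at the same adjusted p, and the median log2 fold change of all tested genes was −0.02. With *Xist* as a covariate edgeR called 0 genes in the 6 libraries, with 4598 at an unadjusted p under 0.05, and 124 higher and 119 lower in 11 libraries without APB5 replicate 3. The number of calls was 127 higher and 120 lower without APB5+Mino replicate 2 and 217 higher and 158 lower without APB5+Mino replicate 3. The libraries of the 2 groups did not overlap for 4455 genes with APB5+Mino higher (23.3%) and for 4530 with APB5+Mino lower (23.7%).

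**Figure D1:**
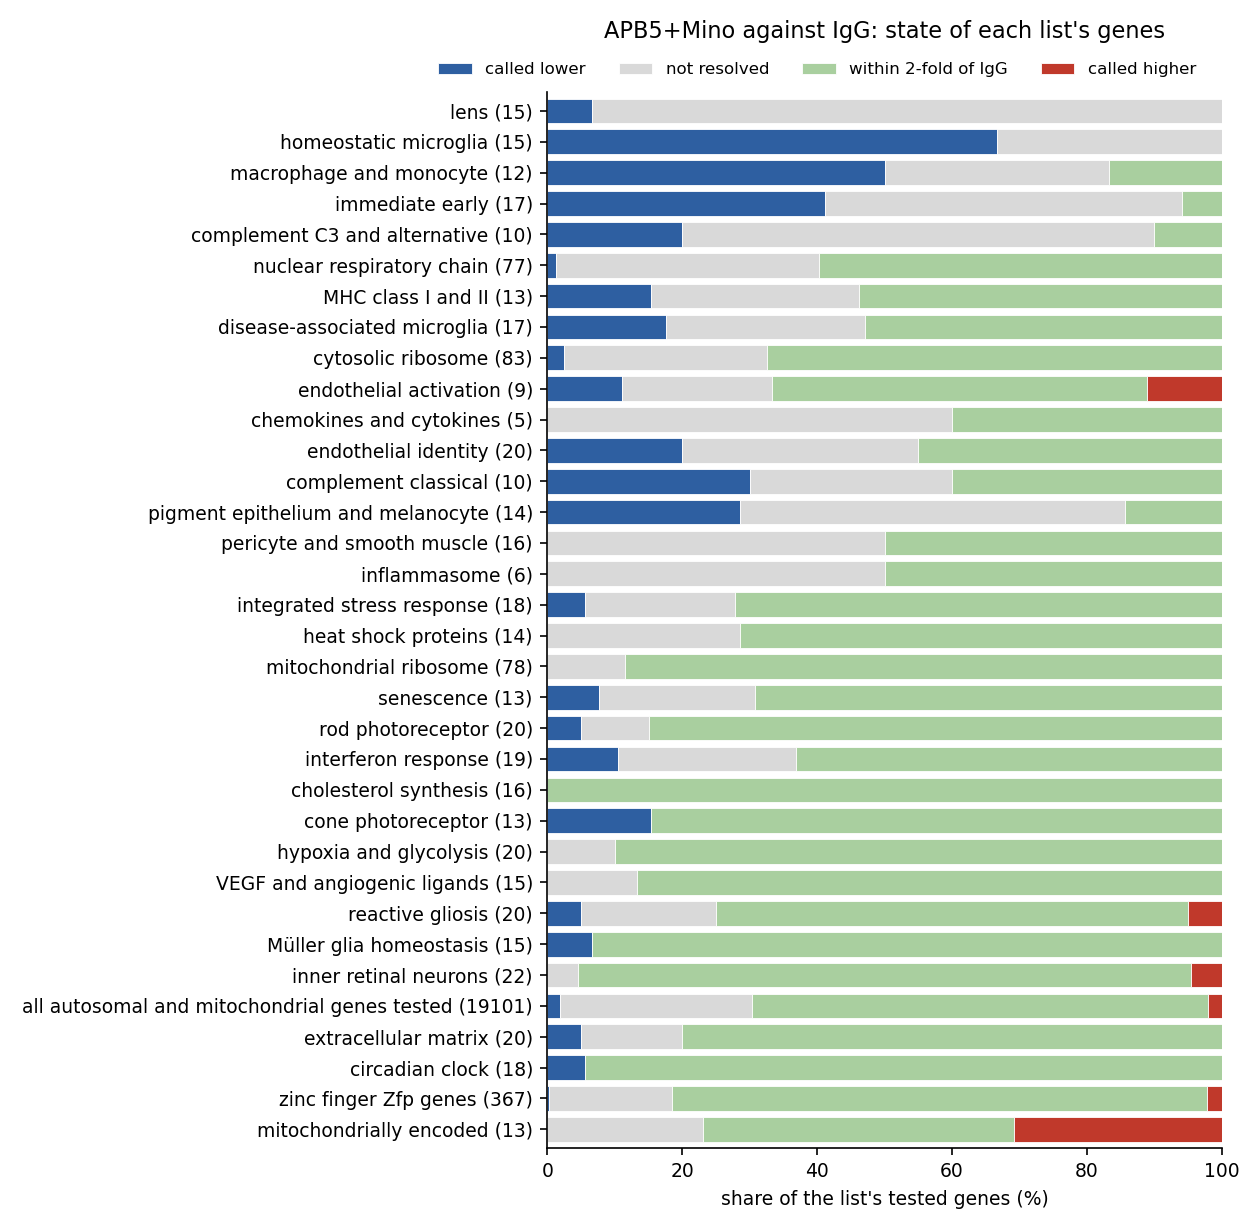
For each gene list shown, the bars give the share of its tested genes (number in brackets) in each state in APB5+Mino against IgG. The states are called lower, not resolved, within 2-fold of IgG and called higher. Lists are ordered from the lowest to the highest median log2 fold change. The red blood cell, the cornea, conjunctiva and lacrimal, and the neutrophil and T cell lists, with few tested genes, are not shown. Homeostatic microglia had 10 of 15 genes called lower and none within 2-fold, whereas cholesterol synthesis had 16 of 16 within 2-fold.

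Genes that are classically switched on in the injured retina were within 2-fold of control about as often as all tested genes. Of the 20 tested genes of the reactive gliosis list, 14 were within 2-fold of IgG (67.6% of all genes were), 1 was higher, 1 was lower and 4 were not resolved, with a median log2 fold change of −0.08. The medians of this list, taken in each library relative to the IgG mean, were −0.17, 0.12 and −0.19 in APB5+Mino and −0.17, 0.06 and 0.13 in IgG, against 1.15, 0.92 and 3.32 in the APB5 libraries without minocycline. With *Xist* as a covariate the median log2 fold change was 0.68 in 12 libraries. It was −0.19 in 11 libraries without APB5 replicate 3 and −0.20 in the 6 libraries compared.

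*Fgf2*, which encodes a growth factor for vessels and photoreceptors, was at 24.9, 29.99 and 21.7 CPM in IgG and at 27.5, 37.6 and 32.8 CPM in APB5+Mino, while the APB5 libraries stood at 78.7, 105 and 155 CPM. The IgG and APB5+Mino ranges overlapped, and the log2 fold change of 0.34 had an interval of −0.01 to 0.69 (edgeR quasi-likelihood test, adjusted p = 0.131). *Serpina3n*, an acute-phase protease inhibitor of reactive astrocytes, and *Lcn2*, an iron-carrier-binding protein of the same state, lay within 2-fold of IgG at log2 fold changes of −0.32 and 0.33. *Ptx3*, a pattern-recognition protein of injury, was the gliosis gene called lower, at −1.02 (edgeR adjusted p = 0.0307), and the call of *Ptx3* was lost without IgG replicate 1 (−1.04), IgG replicate 2 (−0.94), APB5+Mino replicate 1 (−0.77), APB5+Mino replicate 2 (−1.19) or APB5+Mino replicate 3 (−1.13). *Stat3*, the transcription factor downstream of gp130 cytokines, was also within 2-fold, at 0.16.

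*Gfap*, the intermediate filament of astrocytes and reactive Müller glia, was lower than in IgG at an adjusted p under the threshold. It was at 52.8, 53.02 and 46.3 CPM in IgG and at 27.8, 39.0 and 27.7 CPM in APB5+Mino, so that every APB5+Mino library lay under every IgG library. The log2 fold change was −0.70 (SE 0.15, edgeR adjusted p = 0.0116), which did not reach the 2-fold threshold. Without APB5+Mino replicate 3 the value was −0.60 (edgeR adjusted p = 0.062), and with *Xist* as a covariate in 12 libraries it turned to 0.45 (edgeR adjusted p = 0.666). With the covariate in the 6 libraries compared, the *Gfap* value was −0.86. The single APB5+Mino library high in *Xist* gave −0.88 against IgG. The APB5 libraries without minocycline held 129.6, 146 and 1028 CPM and the IgG+Mino libraries 50.3, 40.8 and 55.2 CPM. *Edn2*, the vasoconstrictor endothelin that injured photoreceptors release, was not resolved at a log2 fold change of −0.93 (edgeR adjusted p = 0.0636), with 5.38, 7.705 and 11.8 CPM in IgG and 2.999, 6.22 and 3.86 CPM in APB5+Mino.

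**Figure D2:**
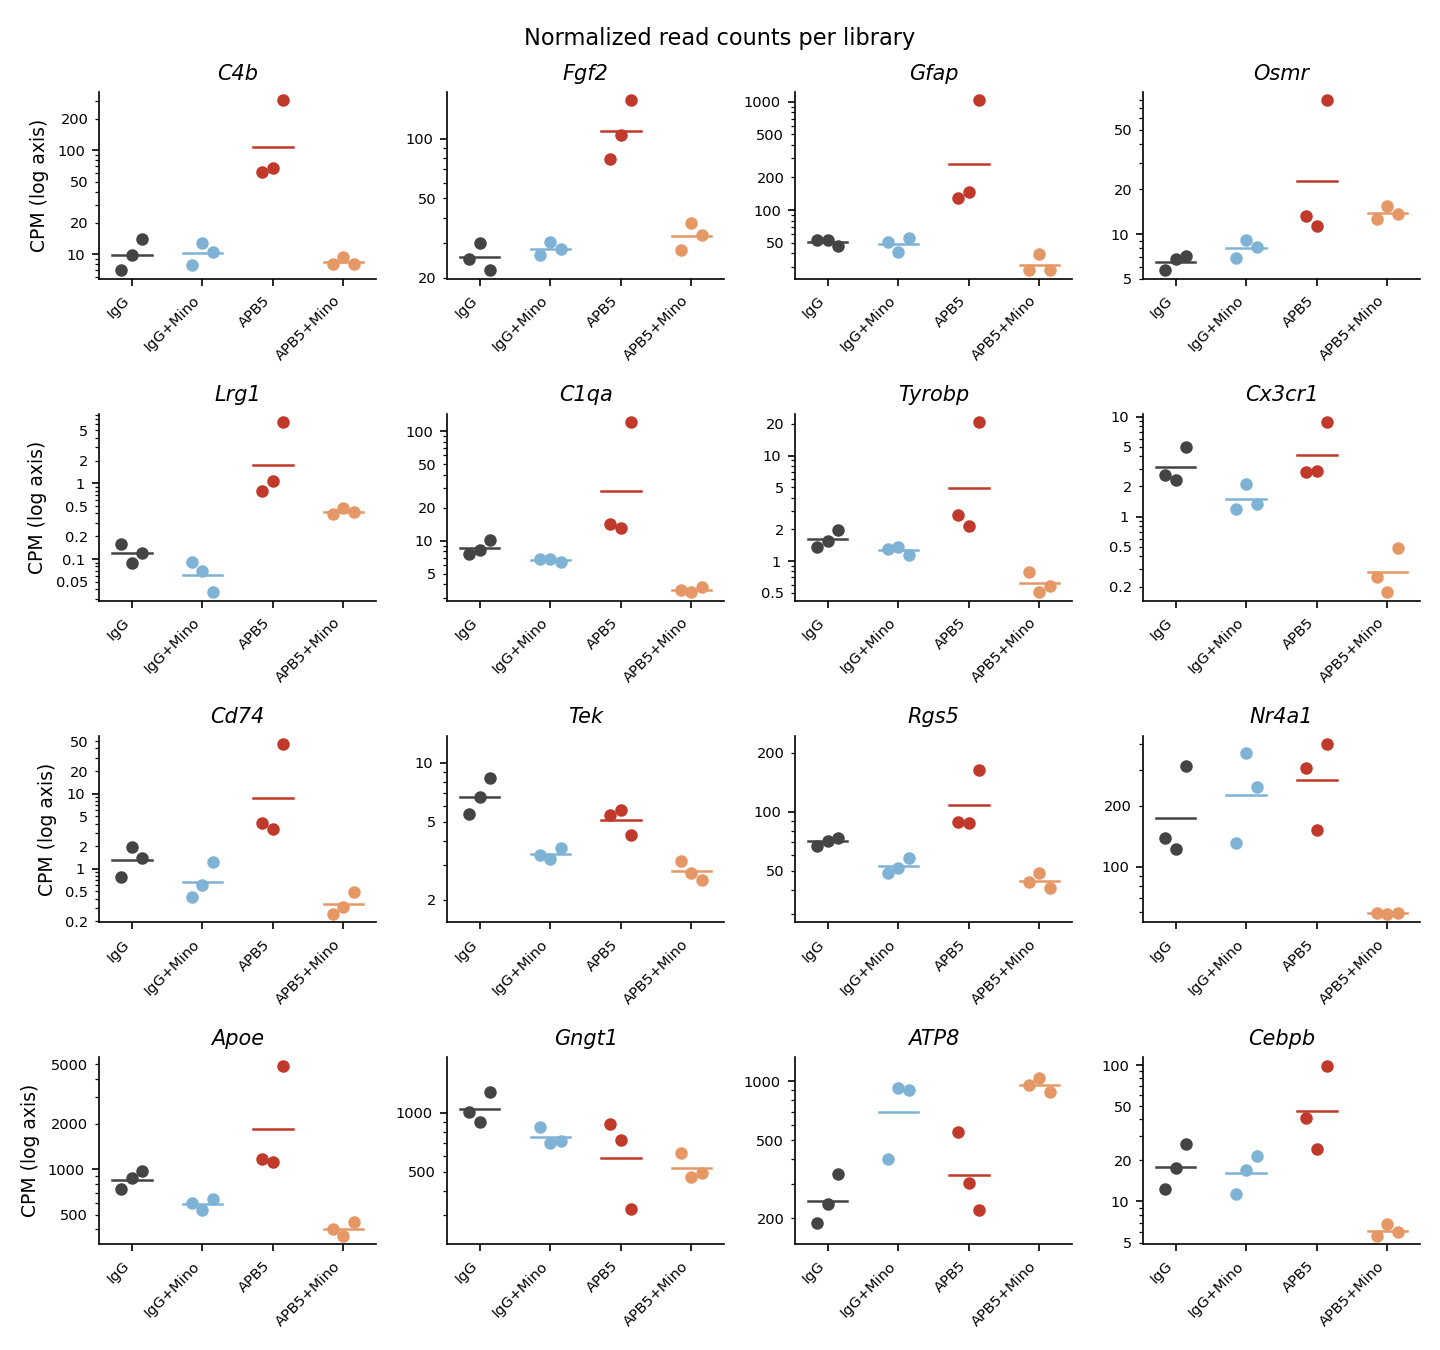
Each point is the CPM of one library on a log axis, and the short line is the geometric mean of the 3 libraries of a group. In the APB5+Mino group *C4b* sits within the range of the IgG points, *Fgf2* overlaps that range with 2 points above it, *Osmr* and *Lrg1* sit above them, and *C1qa*, *Tyrobp*, *Cx3cr1*, *Tek* and *Nr4a1* sit below them.

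*Osmr* was the one gliosis gene called higher. It encodes the oncostatin M receptor, a gp130 partner that signals to STAT3 in glia and endothelium, and lies at chr15:6843053-6904450 (GRCm39). Its levels were 5.69, 6.79 and 7.13 CPM in IgG and 12.6, 15.5 and 13.7 CPM in APB5+Mino, with no overlap, and the log2 fold change was 1.07 (SE 0.14, edgeR adjusted p = 0.00412). The APB5 libraries held 13.3, 11.4 and 78.8 CPM and the IgG+Mino libraries 6.86, 9.14 and 8.18 CPM. *Lrg1*, a secreted glycoprotein that modifies TGF-β signaling in diseased vessels, was the one member of the 9 tested endothelial activation genes called higher (2.1% of all genes were). It rose from 0.158, 0.0878 and 0.121 CPM to 0.393, 0.468 and 0.414 CPM, and the log2 fold change was 1.53 (SE 0.40, edgeR adjusted p = 0.0134), and APB5 libraries held 0.795, 1.06 and 6.40 CPM. *Lrg1* had few reads in each IgG library, and the call of *Osmr* was lost without IgG replicate 1 (0.99), and that of *Lrg1* without APB5+Mino replicate 2 (1.48) or APB5+Mino replicate 3 (1.56). A correction for transcript length and GC content moved *Osmr* to 0.97, just under the fold threshold.

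Among other vascular inflammation genes, the adhesion molecule *Icam1* was at 0.999, 1.42 and 1.002 CPM in IgG and 0.643, 1.25 and 1.43 CPM in APB5+Mino, with overlapping ranges and a log2 fold change of −0.05 (interval −0.80 to 0.69). *Vcam1*, which binds leukocyte integrins, was within 2-fold at −0.36. *Glycam1*, a mucin-like ligand of L-selectin, had too few reads for the test. Its summed counts were 46 in IgG and 5 in APB5+Mino, a ratio of 8.58-fold lower with an interval of 3.42 to 27.7 that covers counting error only. IgG replicate 3 gave 28 of the 46 reads, and without it the ratio was 5.06-fold lower (interval 1.81 to 17.4). The inflammasome protease gene *Casp1*, the smooth muscle actin *Actg2* and complement factor B (*Cfb*) were also under the count filter, with at most 10, 2 and 11 reads in a library.

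Complement, the blood protein cascade that tags cells for removal, did not behave as one group. In the classical pathway list, 4 of 10 genes were within 2-fold of IgG, 3 were lower and 3 were not resolved. Of all genes, 1.82% were lower. The median log2 fold change of the list was −0.53. *C4b*, which forms the C4 step of the cascade, was at 6.97, 9.88 and 14.04 CPM in IgG and 8.05, 9.36 and 8.02 CPM in APB5+Mino. These ranges overlapped, and the log2 fold change was −0.29 (interval −0.81 to 0.22, edgeR adjusted p = 0.37), while the APB5 libraries held 62.3, 67.98 and 301 CPM. *C3*, the central component on which the pathways meet, was within 2-fold as well, at −0.26, with 1.54, 2.37 and 2.297 CPM in IgG and 1.66, 1.599 and 1.96 CPM in APB5+Mino.

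The 3 chains of C1q, the recognition molecule of the classical pathway that microglia make, were below the control level. *C1qa* (chr4:136623223-136626161, GRCm39) was at 7.604, 8.21 and 10.1 CPM in IgG and at 3.59, 3.39 and 3.78 CPM in APB5+Mino, with the log2 fold change at −1.27 (SE 0.15, edgeR adjusted p = 0.00412). *C1qb* changed by −1.28 and *C1qc* by −1.34 (edgeR adjusted p = 0.00471 and 0.0112). The APB5 libraries without minocycline held 14.2, 13.01 and 121 CPM of *C1qa*, above IgG in each case, and the IgG+Mino libraries held 6.75, 6.798 and 6.39 CPM, between the 2 groups compared. With *Xist* as a covariate, *C1qa* stood at −0.02 and *C1qb* at 0.021 in a fit of all 12 libraries, and at −1.23 and −1.27 (edgeR adjusted p = 0.0271 and 0.0387) in the fit without APB5 replicate 3. In the C3 and alternative pathway list, *Cfi*, which encodes the protease that cleaves C3b and C4b, and *Itgam*, one chain of complement receptor 3 on microglia, were the 2 of 10 genes called lower. Their log2 fold changes were −1.50 and −1.47 (edgeR adjusted p = 0.0293 and 0.00466). Over all genes 1.82% were called lower. *Cfi* was at 0.718, 1.00 and 1.399 CPM in IgG and 0.179, 0.565 and 0.301 CPM in APB5+Mino, and the call of *Cfi* was lost without IgG replicate 2 (−1.53), APB5+Mino replicate 1 (−1.21) or APB5+Mino replicate 3 (−1.41). *Cd46*, a membrane cofactor for C3b cleavage, passed the p threshold in the other direction, at 0.87 (edgeR adjusted p = 0.0149), under the fold threshold.

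**Figure D3:**
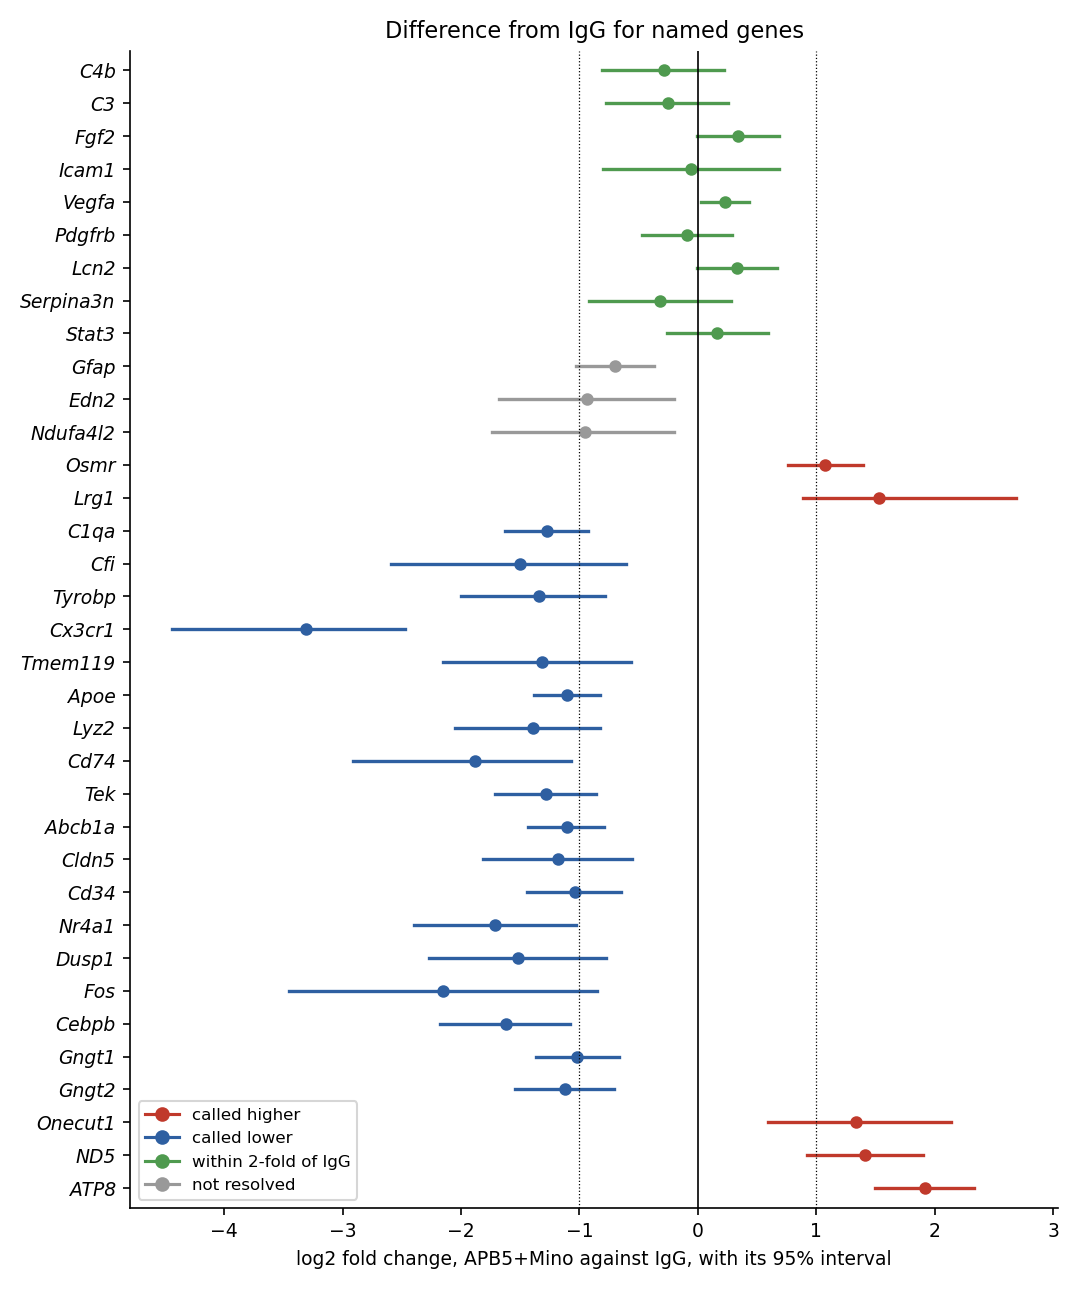
Points are log2 fold changes of APB5+Mino against IgG from the edgeR fit of 6 libraries, and bars are their 95% intervals; dotted lines mark a 2-fold difference. *C4b*, *C3*, *Fgf2*, *Icam1*, *Vegfa* and *Pdgfrb* have intervals inside the dotted lines, and *Cx3cr1* has an interval wholly below the lower one.

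Microglia, the resident macrophages of the retina, keep a characteristic set of surface receptors in the resting state. Of 15 tested genes of the homeostatic microglia list, 10 were called lower, against 1.82% of all genes, none was within 2-fold and 5 were not resolved. The median log2 fold change of the list was −1.32, and in 14 of the 15 genes every APB5+Mino library lay under every IgG library, as in 23.7% of all genes. Relative to the IgG mean, the list medians were −0.46, −0.08 and 0.61 in the IgG libraries and −1.21, −1.20 and −1.34 in the APB5+Mino libraries. They were −0.80, −0.43 and −0.45 in IgG+Mino and −0.04, −0.12 and 1.48 in APB5, so that the APB5+Mino libraries were the lowest of the 12. In these bulk libraries fewer microglia and less RNA of these genes per microglial cell cannot be told apart.

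*Cx3cr1*, the fractalkine receptor through which neurons restrain microglia (chr9:119877749-119898945, GRCm39), had the largest difference of the list. It was at 2.61, 2.33 and 5.01 CPM in IgG and at 0.250, 0.175 and 0.4895 CPM in APB5+Mino, and the log2 fold change was −3.31 (SE 0.43, interval −4.44 to −2.47, edgeR adjusted p = 0.00412). The groups did not overlap. The smallest difference in the list was that of *Olfml3*, at −0.66, which did not pass the test (edgeR adjusted p = 0.0857).

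The ADP receptor genes *P2ry12* and *P2ry13*, with which microglia sense injury, changed by −1.71 and −2.28. *Tmem119*, a membrane protein that separates microglia from infiltrating cells, changed by −1.32, and *Csf1r*, the receptor for the survival factor CSF1, by −1.15. *Tyrobp*, the signaling adaptor of TREM2, was at 1.37, 1.56 and 1.97 CPM in IgG and 0.786, 0.507 and 0.584 CPM in APB5+Mino, which gave a log2 fold change of −1.34 (edgeR adjusted p = 0.00899). When one library was left out in turn, the call of *Tyrobp* was lost without APB5+Mino replicate 2 (−1.21). *Aif1*, which encodes the microglial stain target Iba1, had a log2 fold change of −1.35 at an adjusted p of 0.0521 and was not called.

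Leaving out one library at a time gave 4 to 13 genes of this list called lower, the fewest without APB5+Mino replicate 2 and the most without IgG replicate 1, and list medians of −1.45 to −1.02. IgG replicate 3 had the highest list value of its group. Without it the list median was −1.02 with 9 genes called lower, and *Cx3cr1* changed by −2.88. Set against the 3 IgG libraries, the single APB5+Mino library high in *Xist* gave a list median of −1.37 and a *Cx3cr1* log2 fold change of −2.68, with no gene of the 15 called by edgeR in that smaller comparison. With *Xist* as a covariate, the list median was −0.60 with 1 gene called lower in 12 libraries, and −1.28 with 5 called when APB5 replicate 3 was left out.

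The disease-associated state, in which microglia raise lipid-handling and lysosomal genes, was split. Of 17 tested genes 3 were lower (1.82% of all genes were), 9 were within 2-fold and 5 were not resolved, and the median was −0.62. With *Xist* as a covariate the median was 0.11 with 0 genes called in 12 libraries, and −0.62 with 1 called without APB5 replicate 3. The fit of 12 libraries with no covariate also called 0, at a median of −0.61. *Apoe*, the lipid carrier that both microglia and Müller glia make, was at 735, 876 and 973 CPM in IgG and 403, 362 and 444 CPM in APB5+Mino, with the log2 fold change at −1.10 (SE 0.12, edgeR adjusted p = 0.00412). The correction for transcript length and GC content moved it to −0.97, under the fold threshold. It was at 593, 539 and 631 CPM in IgG+Mino and at 1179.5, 1124 and 4872 CPM in APB5. *Gpnmb*, a lysosomal glycoprotein also found in pigment cells, changed by −1.38 and *Clec7a*, a phagocytic receptor, by −1.49, and the call of *Gpnmb* was lost without IgG replicate 2 (−0.95), APB5+Mino replicate 1 (−1.15) or APB5+Mino replicate 2 (−1.35). The lysosomal marker *Cd68* and the receptor tyrosine kinase *Axl* stood at −0.10 and 0.08, within 2-fold.

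Macrophage and monocyte genes were lower in 6 of 12 tested cases, against 1.82% of all genes, with a median of −1.09. *Mrc1*, the mannose receptor of perivascular macrophages, changed by −2.11 (edgeR adjusted p = 0.00571), from 0.473, 0.9302 and 0.881 CPM to 0.143, 0.156 and 0.151 CPM, and IgG+Mino libraries held 0.0364, 0.0881 and 0.329 CPM. *Lyz2*, the myeloid lysozyme, was at 1.21, 1.93 and 1.88 CPM in IgG and 0.714, 0.546 and 0.603 CPM in APB5+Mino, and the log2 fold change was −1.39 (edgeR adjusted p = 0.00827). *Lyve1*, a second marker of perivascular macrophages, was within 2-fold at 0.10. Leaving out one library at a time gave 3 to 7 calls in this list, the fewest without APB5+Mino replicate 2, and the call of *Lyz2* was lost without APB5+Mino replicate 2 (−1.30). The *Xist* covariate gave a median of −0.14 with 0 genes called in 12 libraries, where *Lyz2* stood at 0.40, and −1.32 with 2 called without APB5 replicate 3. Of the 16 listed genes, *Ms4a7*, *Cd163*, *Ccr2* and *Ly6c2* were under the count filter.

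Of 13 tested antigen presentation genes 2 were called lower, both of the class II pathway, against 1.82% of all genes. *Cd74*, the invariant chain that escorts class II molecules, was at 0.788, 1.97 and 1.38 CPM in IgG and 0.250, 0.312 and 0.4895 CPM in APB5+Mino, which gave a log2 fold change of −1.88 (edgeR adjusted p = 0.0106), and *H2-Ab1*, a class II β chain, changed by −1.08 (edgeR adjusted p = 0.0285). In single omissions, the call of *Cd74* was lost without APB5+Mino replicate 2 (−1.81), and that of *H2-Ab1* without IgG replicate 2 (−1.02), APB5+Mino replicate 2 (−0.87) or APB5+Mino replicate 3 (−0.99). The class I heavy chains *H2-D1* and *H2-K1* were within 2-fold, at −0.39 and −0.30. The median of the antigen presentation list was −0.62. With *Xist* as a covariate it was 0.08 in 12 libraries and −0.54 without APB5 replicate 3, with 0 genes called in each. In the interferon list, 2 of 19 tested genes were lower (1.82% of all genes were), 12 were within 2-fold and 5 were not resolved. The called genes were *Psmb9*, an immunoproteasome subunit, at −1.19, and *Isg15*, a ubiquitin-like interferon product, at −1.05 (edgeR adjusted p = 0.0303 and 0.0306), where the call of *Psmb9* was lost without IgG replicate 1 (−1.18), APB5+Mino replicate 2 (−1.03) or APB5+Mino replicate 3 (−1.04), and that of *Isg15* without IgG replicate 1 (−1.02), IgG replicate 3 (−0.91), APB5+Mino replicate 1 (−0.96) or APB5+Mino replicate 2 (−0.88). The interferon list median was −0.31. With *Xist* as a covariate it was 0.18 in 12 libraries and −0.18 without APB5 replicate 3, with 0 genes called in each. The chemokine and cytokine list had 5 of 16 genes tested and the inflammasome list 6 of 10, and none of those 11 genes was called.

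**Figure D4:**
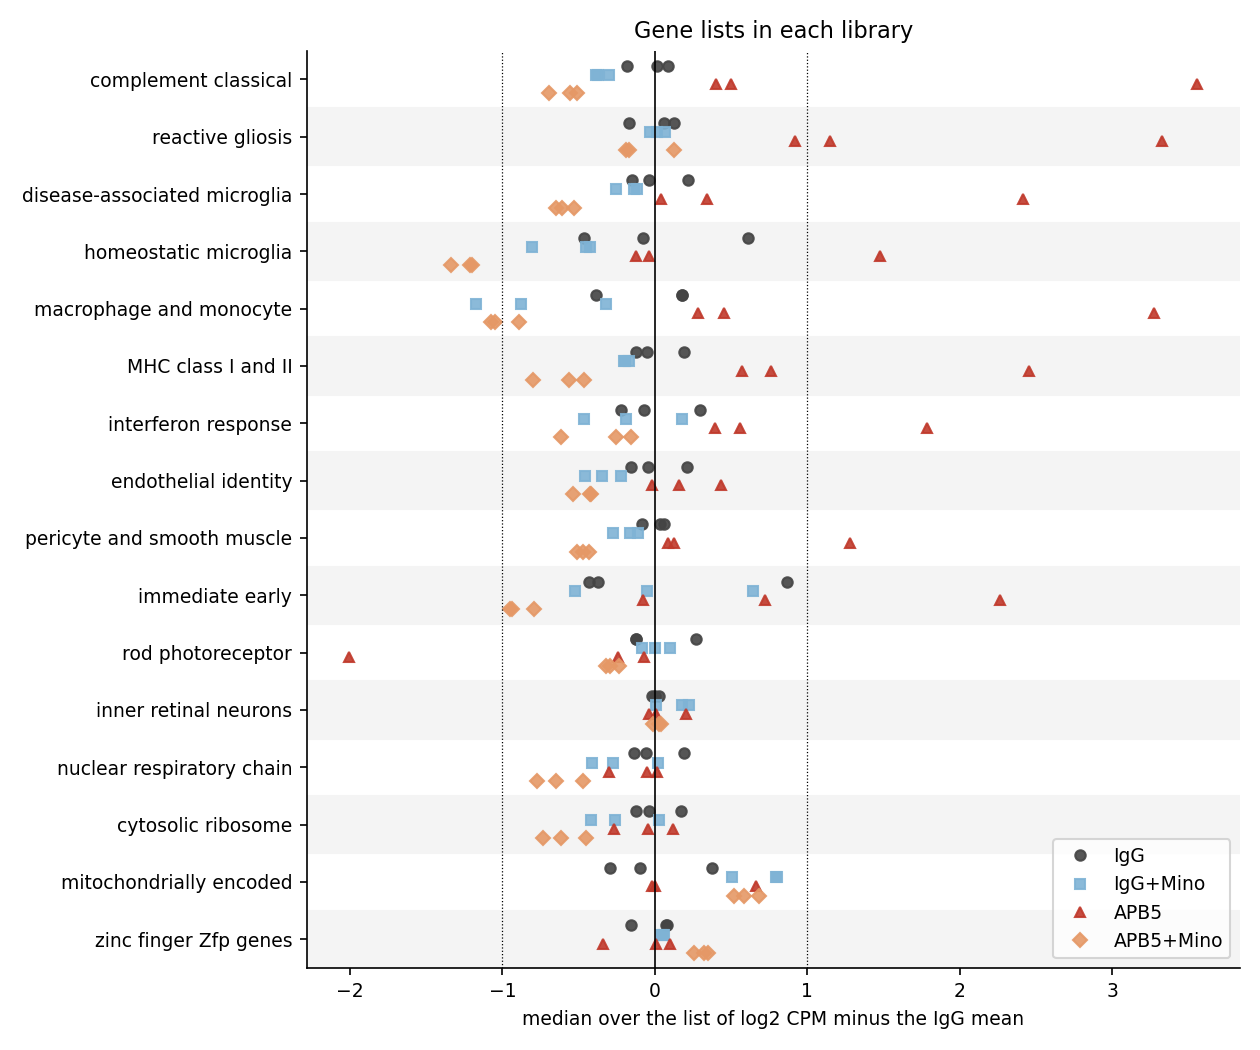
Each point is one library, placed at the median over a gene list of log2 CPM minus the IgG mean; colors and shapes mark the 4 groups, and dotted lines mark 1 on the log2 scale. APB5+Mino libraries lie with the IgG libraries for reactive gliosis and inner retinal neurons, and to the left of them for homeostatic microglia, where they read −1.21, −1.20 and −1.34.

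Immediate early genes are transcribed within minutes of neuronal activity, handling or stress, and their products include the transcription factors FOS, JUN and EGR1. Of 17 tested genes, 7 were lower (1.82% of all genes were), 1 was within 2-fold and 9 were not resolved. The median log2 fold change was −0.99. The level of these genes was even among the treated libraries and uneven among the controls. *Nr4a1*, an orphan nuclear receptor, was at 138, 122 and 314 CPM in IgG and at 58.9, 58.4 and 59.2 CPM in APB5+Mino, with the log2 fold change at −1.71 (SE 0.30, edgeR adjusted p = 0.0074). *Dusp1*, a phosphatase that switches off MAP kinases, was at 39.9, 48.6 and 114 CPM in IgG and at 23.9, 23.3 and 23.7 CPM in APB5+Mino, and the log2 fold change was −1.52 (edgeR adjusted p = 0.0137). In both genes IgG replicate 3 was the highest of its group and the groups did not overlap.

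*Egr1* showed the widest spread, with 91.1, 99.7 and 712 CPM in IgG and 26.3, 28.8 and 36.2 CPM in APB5+Mino, and a log2 fold change of −3.31 (interval −4.85 to −1.77, edgeR adjusted p = 0.0143). *Fos* was at 51.4, 57.1 and 295 CPM in IgG and at 28.6, 33.4 and 29.3 CPM in APB5+Mino. Without IgG replicate 3 the list median was −0.72 with 2 genes called lower, *Nr4a1* changed by −1.15 and *Dusp1* by −0.91, the last under the fold threshold. Leaving out other libraries gave 1 to 8 calls in the list, the fewest without APB5+Mino replicate 3, and the call of *Dusp1* was lost without IgG replicate 3 (−0.91), APB5+Mino replicate 2 (−1.50) or APB5+Mino replicate 3 (−1.51). With the *Xist* covariate no gene of the list was called by edgeR, and the median was −0.61 in 12 libraries and −1.10 without APB5 replicate 3. IgG+Mino libraries held 130.2, 361 and 246 CPM of *Nr4a1*, none of them as low as APB5+Mino.

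*Npas4*, a transcription factor gene that neuronal depolarization induces and that was not on the list, went the other way. It was at 13.7, 12.9 and 11.6 CPM in IgG and at 25.8, 31.8 and 34.5 CPM in APB5+Mino, which gave a log2 fold change of 1.26 (SE 0.13, edgeR adjusted p = 0.00412). *Cebpb*, a transcription factor gene of the acute-phase and stress responses, fell from 12.4, 17.6 and 26.4 CPM to 5.61, 6.81 and 5.95 CPM, with the log2 fold change at −1.62 (SE 0.24, edgeR adjusted p = 0.00478). It was the one called gene of 18 in the integrated stress response list, against 1.82% of all genes called lower. *Zfp36*, which encodes a protein that destabilizes cytokine mRNAs, changed by −1.60 (edgeR adjusted p = 0.015), and the call of *Zfp36* was lost without IgG replicate 3 (−0.96), APB5+Mino replicate 1 (−1.55), APB5+Mino replicate 2 (−1.67) or APB5+Mino replicate 3 (−1.56).

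The promoters of 3 immediate early genes called lower are shown because these genes are textbook targets of CREB, which binds the cyclic AMP response element. CREB activity was not measured. Each line gives the 250 bases before the start site in the RefSeq promoter table, placed on GRCm39 by exact match, 5′ to 3′ on the gene's strand, with the core site TGACG, or its complement CGTCA, in capitals. Overlapping matches form the full element TGACGTCA.
*Dusp1*, chr17:26727447-26727696, minus strand: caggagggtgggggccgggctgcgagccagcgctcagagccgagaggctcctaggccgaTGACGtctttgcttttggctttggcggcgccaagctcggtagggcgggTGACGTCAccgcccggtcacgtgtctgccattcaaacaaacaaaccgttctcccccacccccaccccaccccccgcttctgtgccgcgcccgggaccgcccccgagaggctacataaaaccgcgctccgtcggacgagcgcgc
*Fos*, chr12:85520414-85520663, plus strand: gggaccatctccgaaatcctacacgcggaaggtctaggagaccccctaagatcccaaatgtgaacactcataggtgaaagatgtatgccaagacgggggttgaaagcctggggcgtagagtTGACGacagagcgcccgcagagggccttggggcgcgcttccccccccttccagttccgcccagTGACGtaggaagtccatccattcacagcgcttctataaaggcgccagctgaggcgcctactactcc
*Nr4a1*, chr15:101164477-101164726, plus strand: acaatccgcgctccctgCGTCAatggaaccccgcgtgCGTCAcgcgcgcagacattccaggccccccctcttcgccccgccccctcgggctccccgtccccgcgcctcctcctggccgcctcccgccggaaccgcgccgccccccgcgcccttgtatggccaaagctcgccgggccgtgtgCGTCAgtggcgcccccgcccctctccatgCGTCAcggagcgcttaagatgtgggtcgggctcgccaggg
The core site occurred on either strand 3 times in *Dusp1*, 2 times in *Fos* and 4 times in *Nr4a1*. Over the 300-base windows of the whole table, it was found in 20.8% of 32851 windows and for 6228 of 27025 genes, and for 5 of the 5 called-lower immediate early genes that had a window. For the 17 tested immediate early genes, 12 had a window and 9 of these held it. The full element TGACGTCA was in 1.79% of all windows, in 1 of the 5 called-lower genes with a window and in 2 of the 12 tested ones. The *Nr4a1* and *Dusp1* windows lie inside the annotated genes, at internal starts. The motif was chosen after the values were seen, and a match describes letters in the window, not binding.

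Vascular cells were measured next, since APB5 acts on them. The antibody's target *Pdgfrb* was at 13.6, 12.8 and 20.1 CPM in IgG and 15.1, 14.3 and 14.6 CPM in APB5+Mino, with overlapping ranges and a log2 fold change of −0.09 (interval −0.47 to 0.29, edgeR adjusted p = 0.719). No gene of 16 tested in the pericyte and smooth muscle list was called, 8 were within 2-fold (67.6% of all genes were) and 8 were not resolved, and the list median was −0.48. In 9 of these genes every APB5+Mino library lay under every IgG library, as in 23.7% of all genes. *Rgs5*, a regulator of G protein signaling and a marker of retinal pericytes, was at 67.2, 71.4 and 74.0 CPM in IgG and 44.03, 48.8 and 40.7 CPM in APB5+Mino, with the log2 fold change at −0.68 (SE 0.10, edgeR adjusted p = 0.00458) that lay within 2-fold. *Ndufa4l2*, a hypoxia-responsive mitochondrial protein gene of pericytes, was not resolved at −0.96 (edgeR adjusted p = 0.0652). It was at 2.17, 2.47 and 5.35 CPM in IgG, 1.96, 1.44 and 1.73 CPM in APB5+Mino and 13.4, 10.3 and 12.3 CPM in APB5.

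Endothelial identity genes were lower in 4 of 20 tested cases (1.82% of all genes were), within 2-fold in 9 and not resolved in 7. Their median was −0.53. *Tek*, the angiopoietin receptor TIE2 that keeps vessels quiescent, was at 5.48, 6.69 and 8.34 CPM in IgG and 3.16, 2.75 and 2.54 CPM in APB5+Mino, and the log2 fold change was −1.28 (SE 0.19, edgeR adjusted p = 0.00463). *Abcb1a*, the P-glycoprotein drug pump of the blood-retina barrier, was at 9.23, 10.6 and 11.7 CPM in IgG and 4.78, 4.64 and 5.31 CPM in APB5+Mino, which gave a log2 fold change of −1.11 (SE 0.14, edgeR adjusted p = 0.00412). The other called genes were *Cldn5*, the main claudin of barrier tight junctions, at −1.18, and *Tie1*, the partner receptor of TIE2, at −1.04. *Pecam1*, a general endothelial adhesion molecule, was within 2-fold at −0.19 (interval −0.47 to 0.09). With one library left out, 2 to 6 genes of the list were called, the fewest without APB5+Mino replicate 3 and the most without IgG replicate 1, and the list medians were −0.58 to −0.38. The IgG+Mino libraries held 3.38, 3.24 and 3.69 CPM of *Tek* and 5.15, 5.69 and 5.53 CPM of *Abcb1a*, below IgG in each library. All IgG+Mino libraries were low in *Xist* and all IgG libraries high. Effects of sex and of minocycline therefore cannot be told apart in these values.

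The endothelial activation list held *Lrg1*, described above, and *Cd34*, a sialomucin of vessels, which was lower at −1.04 (edgeR adjusted p = 0.00601), and the call of *Cd34* was lost without IgG replicate 3 (−0.88) or APB5+Mino replicate 1 (−0.97). In the VEGF and angiogenic ligand list no gene of 15 was called and 13 were within 2-fold. Over all genes, 1.82% were called lower and 67.6% were within 2-fold. *Vegfa*, the main angiogenic ligand of the hypoxic retina, was at 162, 153 and 177 CPM in IgG and 200.4, 193 and 187 CPM in APB5+Mino. The APB5+Mino libraries lay above the IgG libraries without overlap, but the log2 fold change was 0.23 (interval 0.03 to 0.43, edgeR adjusted p = 0.0876). *Flt1*, the decoy VEGF receptor, stood at −0.06. In the extracellular matrix list 16 of 20 genes were within 2-fold, the median was −0.01, and *Col3a1*, a fibrillar collagen gene, was the one called, at −1.31 (edgeR adjusted p = 0.0464), and the call of *Col3a1* was lost without IgG replicate 2 (−0.70), APB5+Mino replicate 1 (−1.29), APB5+Mino replicate 2 (−1.13) or APB5+Mino replicate 3 (−1.51). The hypoxia and glycolysis list had 18 of 20 genes within 2-fold and no call, with a median of −0.11.

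Photoreceptor and neuronal genes were mostly within 2-fold of control. Of 20 tested rod genes 17 were within 2-fold, with a median of −0.33, of 13 cone genes 11 were, with a median of −0.22, and of 22 inner retinal neuron genes 20 were, with a median of −0.03, against 67.6% of all genes within 2-fold. Without IgG replicate 3 the rod and cone medians were −0.14 and −0.07, and no gene of either list was called by edgeR. The rod and cone genes called lower were the small subunits of the phototransduction machinery. *Gngt1* and *Gngt2*, the γ chains of rod and cone transducin, changed by −1.02 and −1.12, and *Pde6h*, the inhibitory γ chain of the cone phosphodiesterase, by −1.07 (edgeR adjusted p = 0.00478, 0.00573 and 0.0247). *Gngt1* was at 1006, 902 and 1277 CPM in IgG and 622, 469 and 496 CPM in APB5+Mino. These calls lay close to the fold threshold, and the call of *Gngt1* was lost without IgG replicate 3 (−0.85), APB5+Mino replicate 2 (−0.93) or APB5+Mino replicate 3 (−0.96), and that of *Gngt2* without IgG replicate 3 (−0.90), and that of *Pde6h* without IgG replicate 3 (−0.59), APB5+Mino replicate 1 (−1.19), APB5+Mino replicate 2 (−1.01) or APB5+Mino replicate 3 (−0.99).

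*Onecut1*, a transcription factor gene of horizontal and ganglion cells, was the one inner neuron gene called higher, at 1.33 (edgeR adjusted p = 0.0216), with 1.26, 1.299 and 0.604 CPM in IgG and 1.95, 3.72 and 2.54 CPM in APB5+Mino, and the call of *Onecut1* was lost without APB5+Mino replicate 2 (1.06) or APB5+Mino replicate 3 (1.39). The ganglion cell and pan-neuronal genes *Pou4f1*, *Thy1* and *Nefl* were within 2-fold at −0.16, −0.12 and −0.21. Of 15 Müller glia homeostasis genes, 14 were within 2-fold (67.6% of all genes were), among them *Glul*, the enzyme that detoxifies glutamate, at −0.22, *Aqp4*, the water channel, at 0.09, and *Kcnj10*, the potassium channel, at 0.21. The exception was *Apoe*, which was called lower in the main fit and in 15 of 22 alternative settings. It lay under the fold threshold with the length and GC correction (−0.97) and with *Xist* as a covariate in the 6 libraries (−0.996).

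Housekeeping programs moved by less than 2-fold but in one direction per program. Of 77 tested nuclear genes of the respiratory chain, 61 were lower and none higher at any fold at an adjusted p of at most 0.05, the median was −0.63, and 46 were within 2-fold. *Cox8b*, a muscle-type subunit of cytochrome c oxidase, was the one called, at −2.11 (edgeR adjusted p = 0.00703). Of 83 cytosolic ribosomal protein genes, 59 were lower and none higher at any fold, with a median of −0.61, and *Rpl23a* and *Rps16* were called at −1.26 and −1.03, where the call of *Rpl23a* was lost without IgG replicate 3 (−0.86), APB5+Mino replicate 1 (−1.03), APB5+Mino replicate 2 (−1.52) or APB5+Mino replicate 3 (−1.27), and that of *Rps16* without IgG replicate 1 (−1.03), IgG replicate 3 (−0.88), APB5+Mino replicate 2 (−1.07) or APB5+Mino replicate 3 (−0.78). Of 78 mitochondrial ribosomal protein genes, 33 were lower and none higher at any fold, with a median of −0.34. Leaving out one library at a time gave medians of −0.73 to −0.52 for the nuclear respiratory chain, −0.69 to −0.52 for cytosolic ribosomal proteins and −0.42 to −0.25 for mitochondrial ones, and the APB5+Mino library high in *Xist* alone gave −0.67, −0.64 and −0.39. Over all 19101 genes, 2391 were higher and 2560 lower at any fold. Ribosomal protein genes share sequence with many processed pseudogenes, so that their single counts are uncertain.

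Taken as a list, the genes encoded by the mitochondrial genome went the other way from their nuclear partners. Of 13 tested, 9 were higher and none lower at any fold, 4 were called higher (2.1% of all genes were) and 6 were within 2-fold. Their log2 fold changes ran from −0.69 to 1.91, with a median of 0.55. *ATP8*, a small subunit of ATP synthase (chrMT:7766-7969, GRCm39), was at 188, 236 and 334 CPM in IgG and 959, 1037 and 882 CPM in APB5+Mino, with the log2 fold change at 1.91 (SE 0.18, edgeR adjusted p = 0.00412). *ND5*, a subunit of complex I, changed by 1.41 (edgeR adjusted p = 0.00492), whereas *COX2*, a subunit of complex IV, stood at 0.18, within 2-fold. With one library left out, 3 to 6 were called, the most without IgG replicate 3. The IgG+Mino libraries were also above the IgG mean, with list medians of 0.50, 0.80 and 0.80 against 0.68, 0.59 and 0.52 in APB5+Mino, 0.66, −0.00 and −0.02 in APB5 and −0.29, −0.09 and 0.37 in IgG. *ATP8* overlaps *ATP6* on the same strand of the genome, so reads at that junction cannot be assigned to one of them.

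Genes named *Zfp*, most of which encode zinc finger transcription factors, formed the largest list. Of 367 tested, 99 were higher and 12 lower at any fold, 8 were called higher and 1 (*Zfp36*) lower, against 2.1% of all genes called higher and 2391 higher and 2560 lower of 19101 at any fold. The median was 0.29. *Zfp169* and *Zfp469* changed by 1.05 and 1.30 (edgeR adjusted p = 0.00412 and 0.00412). Between 3 and 14 *Zfp* genes were called higher when one library was left out, the fewest without APB5+Mino replicate 2 and the most without IgG replicate 2, the call of *Zfp169* was lost without IgG replicate 3 (0.95) or APB5+Mino replicate 2 (0.99), and with the length and GC correction *Zfp469* stood at 0.83.

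The difference between the groups varied with transcript length. Across the 17805 genes with a known length and GC content, which are not independent replicates, the Spearman correlation of log2 fold change with length was 0.403 and with GC content −0.10. The decile of genes with the shortest transcripts (median 597 bases) stood at a median of −0.36, with 48 genes called higher and 83 lower. The decile with the longest (median 8967 bases) had a median of 0.38, with 66 called higher and 2 lower. Relative to the IgG mean, the longest decile stood at 0.30, 0.51 and 0.40 in the APB5+Mino libraries and at −0.02, 0.32 and 0.26 in IgG+Mino. The median transcript length was 2521 bases for nuclear respiratory chain genes, 1947 bases for cytosolic ribosomal protein genes and 4717 bases for *Zfp* genes. With a correction for length and GC content the medians of these lists were −0.49, −0.43 and 0.22, and that of homeostatic microglia, with a median length of 3698 bases, was −1.20. The correction also ended the calls of *Ptx3* (−0.84), *Isg15* (−0.80), *H2-Ab1* (−0.90), *Gngt2* (−0.96), *Rpl23a* (−1.08), *Rps16* (−0.80) and *Bfsp2* (−1.39). RNA integrity per library is not given in the sources used here, and its part in these differences was not tested.

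**Figure D5:**
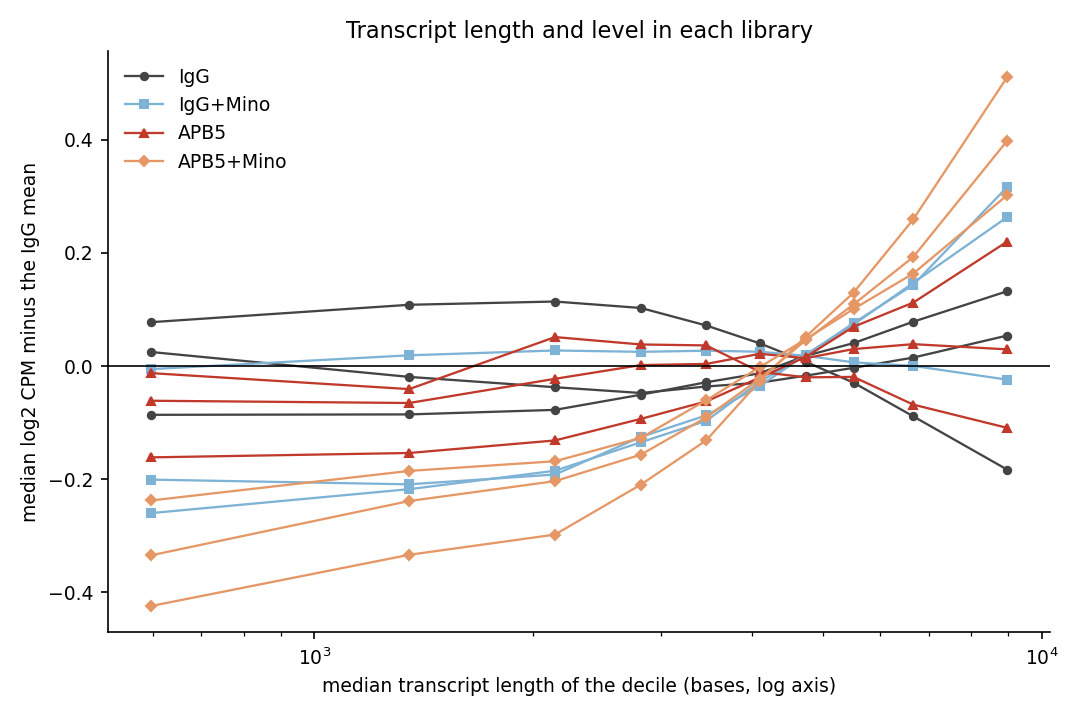
Deciles of the genes by transcript length are placed at their median length on a log axis, and each line joins the medians of log2 CPM minus the IgG mean of one library. The 3 APB5+Mino lines run from between −0.42 and −0.24 for the shortest decile to between 0.30 and 0.51 for the longest, while the IgG lines stay between −0.18 and 0.13 throughout.

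The 10 raised genes with the smallest p included long ones. *Stard9* (15399 bases), a kinesin gene, rose by 1.46 on the log2 scale, *Celsr3* (11571 bases), an adhesion GPCR gene of axon guidance, by 1.24, *Zfyve26* (9391 bases), an endosomal protein gene, by 1.35, *Kmt2b* (8738 bases), a histone methyltransferase gene, by 1.03, and *Lrp8* (8107 bases), the reelin receptor, by 1.11. *Ccdc88c*, which encodes a Dishevelled-binding protein, rose by 1.08 and *Fam167a* by 2.04, the latter from 1.02, 1.35 and 1.21 CPM to 5.05, 5.62 and 4.52 CPM. With the correction for length and GC content, *Stard9*, *Lrp8*, *Kmt2b*, *Celsr3* and *Ccdc88c* fell under the fold threshold, at 0.92, 0.85, 0.72, 0.78 and 0.81, while *Zfyve26* stood at 1.01, and the call of *Kmt2b* was lost without APB5+Mino replicate 2 (0.98), and that of *Ccdc88c* without APB5+Mino replicate 2 (0.99). *ATP8* and *Npas4* belong to that group, and each of the 10 had an edgeR adjusted p of 0.00412, the smallest of the fit.

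The 10 lowered genes with the smallest p held *C1qa* and *Apoe*, described above, other protein-coding genes and 3 pseudogenes. *Esrp1*, a splicing regulator of epithelia, fell from 1.87, 1.67 and 1.73 CPM to 0.446, 0.3705 and 0.414 CPM, and the log2 fold change was −2.01. *Plac9a*, a small secreted protein gene, changed by −1.61 and *Gng11*, a G protein γ chain gene, by −1.49. The pseudogenes *Rps10-ps2*, *Cox7c-ps1* and *Rpl36-ps12* changed by −1.24, −1.30 and −1.23, and their reads may come from the parent genes. With the correction for length and GC content they stood at −0.98, −0.98 and −0.96, under the fold threshold.

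The smaller stress programs had at most 1 call each. Over all genes, 2.1% were called higher, 1.82% were called lower and 67.6% were within 2-fold. Heat shock genes had 10 of 14 within 2-fold and no call, with a median of −0.34, and cholesterol synthesis genes had 16 of 16 within 2-fold, with a median of −0.25. In the senescence list 9 of 13 were within 2-fold, *Cdkn1a*, the cell cycle inhibitor p21, stood at 0.24, and the growth factor gene *Gdf15* was lower at −1.41 (edgeR adjusted p = 0.0258). In the circadian clock list 17 of 18 were within 2-fold, and *Ciart*, a clock repressor gene, was lower at −1.35 (edgeR adjusted p = 0.0104), and the call of *Ciart* was lost without IgG replicate 3 (−0.89), APB5+Mino replicate 2 (−1.39) or APB5+Mino replicate 3 (−1.25), and that of *Gdf15* without IgG replicate 3 (−1.02), APB5+Mino replicate 2 (−1.28) or APB5+Mino replicate 3 (−1.36).

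Some markers of tissue next to the retina differed between the groups, and others followed single libraries. In the pigment epithelium and melanocyte list 4 of 14 tested genes were lower, against 1.82% of all genes. They were the melanosome genes *Mlana*, *Dct*, *Pmel* and *Tyrp1*, at −2.91, −2.32, −1.89 and −1.38. *Dct* was at 45.96, 78.96 and 28.7 CPM in IgG and 6.48, 9.67 and 14.7 CPM in APB5+Mino. Only 2 genes of this list were called without APB5+Mino replicate 2. Relative to the IgG mean, its list medians overlapped, at −0.01, 0.38 and −0.43 in IgG and −0.62, −0.85 and −0.17 in APB5+Mino. *Rpe65*, the retinoid isomerase specific to the pigment epithelium, was not resolved at −0.42. Lens genes were uneven, with list medians of 1.82, −0.58 and −1.28 in IgG and −2.23, −0.48 and −0.72 in APB5+Mino relative to the IgG mean, and 1 of 15 was called, *Bfsp2* at −1.55. Without IgG replicate 1 the lens median was −0.10, without IgG replicate 3 it was −1.91 with 12 genes called, and the call of *Bfsp2* was lost without IgG replicate 1 (−0.80), APB5+Mino replicate 1 (−1.33), APB5+Mino replicate 2 (−1.53) or APB5+Mino replicate 3 (−1.79). The 4 tested hemoglobin genes were not resolved, with list medians of −0.88, −0.52 and 1.40 in IgG and 0.10, 0.72 and 0.19 in APB5+Mino. Without IgG replicate 3 the hemoglobin median was 1.05 and 3 of these genes were called higher. Of 13 neutrophil and T cell genes 10 were under the count filter and none was called, and of 11 cornea, conjunctiva and lacrimal genes 9 were under the filter and none was called. IgG replicate 2 stood apart in the summed level of those 11 genes, at 7.18 CPM against 0.841 and 1.12 CPM in IgG replicates 1 and 3 and 0.696, 0.741 and 1.205 CPM in APB5+Mino. *Krt12*, a keratin gene of the cornea, was at 0.228, 2.81 and 0.294 CPM in IgG and 0.179, 0.253 and 0.565 CPM in APB5+Mino, and its log2 fold change of −1.65 (edgeR adjusted p = 0.19) became 0.30 without IgG replicate 2 and −2.08 without IgG replicate 3, where it was called (edgeR adjusted p = 0.0417). The part of these other tissues in the values of the microglial, vascular and *Gpnmb* results was not tested.

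*C1qc*, *Cd46*, *Serpina3n*, *Lcn2*, *Stat3*, *Vcam1*, *P2ry12*, *P2ry13*, *Tmem119*, *Csf1r*, *Olfml3*, *Clec7a*, *Cd68*, *Axl*, *Lyve1*, *H2-D1*, *H2-K1*, *Egr1*, *Fos*, *Rgs5*, *Cldn5*, *Tie1*, *Pecam1*, *Pou4f1*, *Thy1*, *Nefl*, *Glul*, *Aqp4*, *Kcnj10*, *COX2*, *Cdkn1a*, *Pmel*, *Tyrp1* and *Rpe65* were named after their values were seen, and the other tested genes by a fixed rule.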

How the data were processed

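Stranded poly(A) libraries of retinal RNA were sequenced in 12 samples, 3 per group. The deposited values are whole-number counts per gene, which the authors made from single reads with DRAGEN on mm39 after bcl2fastq 2.20, according to the submitters' processing notes. The strand setting of the counting is not given in the sources used here. The authors' tables of differential expression also hold log2 fold changes and p-values, which were not used, and 3 columns repeated between tables were read once. Counts were fitted with edgeR 4.0.16 (R 4.3.3) in the 6 libraries of the 2 groups, with TMM scaling, the group-based filter on low counts, a prior count of 2 and Benjamini-Hochberg adjustment over all 20183 genes tested, sex-linked ones included. CPM are TMM-scaled over 12 libraries. The 95% interval is a Wald interval with the quasi-likelihood standard error. The fit was also run on counts simulated from its own estimates with known changes. That run held no sex imbalance and no outlying library, so it does not test their effect. A p from permuting 3 against 3 libraries could not go below 0.1, so no single-gene permutation test was used.

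Members and the 36 gene lists were chosen with earlier results of these data known, so lists carry counts and medians only. Named genes were those the study names for its RNA-Seq data, 10 called genes per direction of smallest p with groups that do not overlap and a mean of at least 1 CPM, and 2 called genes per direction and list or, in a list with no call, the 2 most abundant. Alternatives were DESeq2 1.42.0, voom in limma 3.58.1 with quality weights, robust estimation, RLE or library-size scaling, other count filters, no fold threshold, 12 or 11 libraries in the fit, the replicate number as a block, *Xist* as a covariate, a per-library correction for GC content and transcript length (GENCODE, GRCm39), and leaving out each library. Promoter letters come from a RefSeq promoter table of an earlier mouse genome build and were placed on GRCm39 by exact match. Single counts and intervals of ratios cover counting error only. Some genes that the rule names are not reported here.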

Additional observations from a re-analysis of the deposited data

How the results depend on the processing

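Of the 402 genes called higher and 348 called lower, the counts stayed within 1.5 times under DESeq2 (434 and 339), RLE scaling (411 and 329), robust estimation, both other count filters, voom (498 and 482) and 11 libraries without APB5 replicate 3 (386 and 375). Scaling by library size alone turned the split to 337 higher and 393 lower. With all 12 libraries in the fit 231 were higher and 175 lower. With *Xist* as a covariate the counts were 141 and 79 in 12 libraries, 124 and 119 in 11 libraries, and 0 and 0 in the 6 libraries (edgeR, 4598 genes at an unadjusted p under 0.05). With only the libraries high in *Xist* they were 0 and 0 (edgeR, 3345 genes at an unadjusted p under 0.05), where the lone APB5+Mino library is assumed to vary like IgG. Correction for GC content and length gave 296 and 217, and together with the replicate block 267 and 168. Without a fold threshold they were 2391 and 2560. Leaving out one library gave 127 to 451 genes higher, 120 to 348 lower and 11514 to 13846 within 2-fold, with the lowest counts of calls (127 and 120) without APB5+Mino replicate 2 and the next (217 and 158) without replicate 3. The replicate number as a block gave 384 and 284, 12779 within 2-fold. Same-numbered libraries did not deviate together (correlations of −0.11, 0.11 and −0.01). With 3 libraries per group, each set against its own group mean, these values cannot show whether the numbers pair them. All 750 called genes kept their sign wherever they were tested, except under the *Xist* covariate in 12 libraries, where 739 did. Over 87 tested named genes, 1569 values stayed on the same side of the thresholds, 321 lost a call, 13 gained one and 6 reversed. The reversals were, under the *Xist* covariate in 12 libraries, *Lyz2* at 0.40, *C1qb* at 0.021, *Gpnmb* at 0.30, *Mpeg1* at 0.19 and *Col3a1* at 0.81, and *Hbb-bs* at 1.04 without IgG replicate 3 (−0.38 to 1.04 over the omitted libraries). The cause was not tested. Sign changes of values that were not called, such as that of *Gfap*, are not counted as reversals. At 52740545 or more reads per library, 5 of 16 listed cytokine and chemokine genes passed the count filter.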
